A study of Mus musculus with 4 samples.

Results

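Border-associated macrophages are the macrophages at the edges of the brain, in the meninges, the perivascular spaces and the choroid plexus. They were taken from single-cell RNA sequencing of mouse brain as barcodes with at least 1000 unique molecular identifiers (UMIs), at least 500 genes and at most 20% mitochondrial UMIs that held at least 3 of the 6 genes Mrc1, Pf4, Cbr2, F13a1, Cd163 and Lyve1. The 4 microglial genes P2ry12, Tmem119, Siglech and Sparc together could hold at most 3 UMIs, and Cldn5, Aqp4 and Mog together at most 2. The rule found 503 barcodes of 60717 that passed the 3 filters on UMIs, genes and mitochondrial share, out of 74993 deposited. By library there were 111 after NaCl and 149 after LPS in APOE3, and 86 and 157 in APOE4.

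Unlike microglia, which sit within the brain tissue, these macrophages face blood and cerebrospinal fluid. They are known for scavenger and mannose receptors, for taking up material that crosses the border, and for a subset that presents antigen on MHC class II. Lipopolysaccharide (LPS), a bacterial endotoxin sensed through Tlr4 and Cd14, drives macrophages to make chemokines, acute-phase proteins and interferon-stimulated genes.

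All mice were male and carried human APOE in place of the mouse gene by targeted replacement, APOE3 on both alleles or APOE4 on both alleles, so neither genotype is a wild-type control. One set of each genotype had received LPS at 5 mg/kg into the peritoneum and was killed 24 h later, and the other set had received NaCl. The age of the mice was not given in the sources used here. Each of the 4 groups was 1 library of glia-enriched brain cells from 3 mice, with no map from cells to mice. There were therefore no replicates. No difference between groups was tested, none has a replicate check, and intervals in parentheses are 95% intervals that cover counting error alone. With 1 library a group, genotype, treatment, library and pool of mice cannot be told apart.

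The libraries held 73288965 to 114378032 UMIs in 14122 to 29361 barcodes. The APOE4 LPS library stood apart. It had the most barcodes and a median of 1292 UMIs per barcode against 3969 to 5640.5 in the other 3, and 61.9% of its barcodes passed the filters against 92.6 to 93.7%. In oligodendrocytes, which should lack macrophage genes, at least 1 of the 6 marker genes was found in 0.939% of cells after NaCl and 2.0% after LPS in APOE3, and 0.647% and 6.34% in APOE4. Barcodes shared between a pair of libraries numbered 61 to 140, and 0 of them were macrophages in both. A doublet caller, Scrublet, marked 8.18% to 10.0% of passing barcodes in the other 3 libraries and 24.1% in APOE4 LPS, and 5, 4, 6 and 18 of the macrophages for APOE3 (NaCl, LPS) and APOE4 (NaCl, LPS). They were kept, and left out as an alternative. Results that rest on the APOE4 LPS library are given beside those of APOE3, which do not use it.

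The macrophages made up 0.771% (0.634 to 0.927) of passing barcodes after NaCl and 0.989% (0.838 to 1.16) after LPS in APOE3, and 0.658% (0.527 to 0.812) and 0.863% (0.734 to 1.01) in APOE4. The share was higher in the LPS library of each genotype, and the intervals of the 2 libraries overlapped within each genotype. Set against the microglia of the same library they were 3.08% (2.54 to 3.69) of both cell types together after NaCl and 3.23% (2.74 to 3.78) after LPS in APOE3, and 2.64% (2.12 to 3.25) and 4.71% (4.02 to 5.49) in APOE4. Microglia, chosen by the 4 microglial genes and few UMIs of the rule's genes, were 24.3%, 29.7%, 24.3% and 17.5% of passing barcodes in the same order. Of 10 other microglial genes, 4 were at least 2-fold lower after LPS in APOE3 microglia and 8 in APOE4 microglia. The part of the microglia rule in these shares was not tested. The macrophages held a median of 2878, 5480, 2995.5 and 3027 UMIs in the same order, and 379511, 882861, 288667 and 698571 UMIs in all. With each barcode thinned to 1000 UMIs before the rule was applied, the APOE4 LPS share was 0.632%.

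The label held against genes that the rule did not use, less so in APOE4 LPS. Ms4a7, a membrane protein known from border macrophages, stood at 809 CPM (UMIs of the gene per 1000000 UMIs of the macrophages) after NaCl and 669 after LPS in APOE3, and 856 and 464 in APOE4. Stab1, a scavenger receptor that clears modified lipoproteins, stood at 1447, 759, 1711 and 621 CPM. Dab2, an adaptor of clathrin-mediated uptake, stood at 2263, 1864, 1881 and 1417 CPM. All 3 genes were present in each of the 4 libraries and lowest in APOE4 LPS. Thinned to 1000 UMIs, Ms4a7 was found in 32.5% of APOE4 LPS macrophages, against 49.7 to 52.3% in the other libraries. In APOE4 LPS, 85 of 157 macrophages had 3 or 4 rule genes, against 29 of 149 in APOE3 LPS. Ms4a7 stood at 266 CPM in those 85 and at 608 CPM in the APOE4 LPS macrophages with 5 or 6, and Ttr, a choroid plexus gene, at 7738 and 408 CPM. Microglia of the same libraries held 91.0 to 173 CPM of Stab1. Folr2, the macrophage folate receptor, lay between 150 and 261 CPM, and the lectin Clec4n between 180 and 292 CPM. The complement gene C1qa, shared with microglia, was found in 97.3% to 100% of macrophages thinned to 1000 UMIs. It was also found in 44.5% of thinned oligodendrocytes of APOE4 LPS, against 1.95 to 6.45% in the other libraries.

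**Figure D1:**
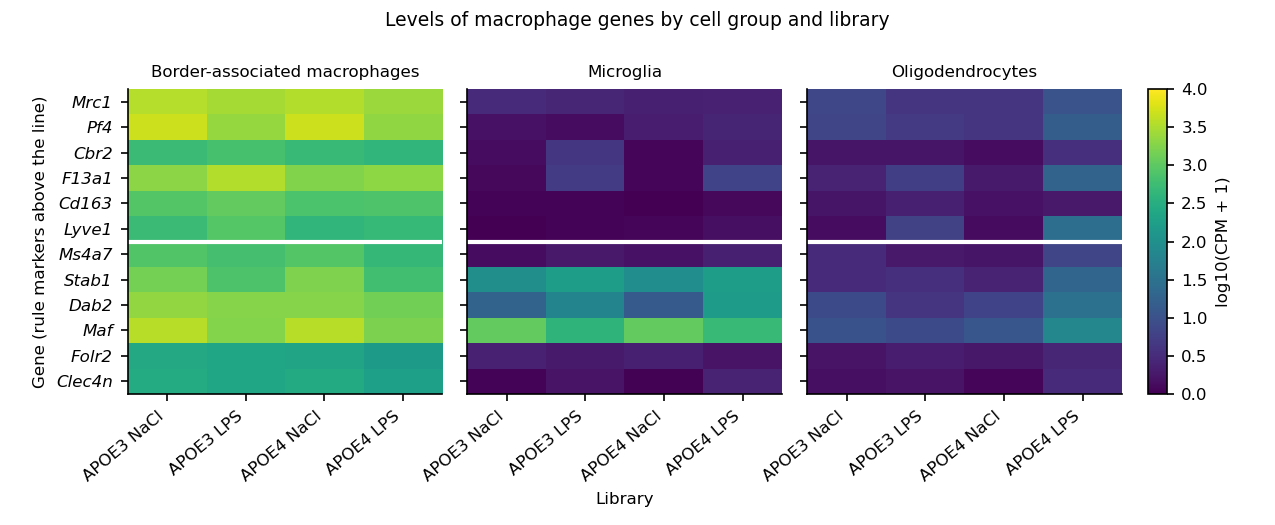
Levels of the 6 genes of the rule (above the white line) and 6 other macrophage genes (below it) as log10 of CPM + 1 in border-associated macrophages, microglia and oligodendrocytes of each library. Summed over the 6 genes of the rule, macrophages held 8456 to 12361 CPM, microglia 2.68 to 10.3 CPM and oligodendrocytes 8.41 to 71.7 CPM.

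The genes that chose the cells are a description only. Mrc1, the mannose receptor, stood at 3557 CPM after NaCl and 2930 after LPS in APOE3, and 3516 and 2514 in APOE4. Pf4, a platelet-type chemokine of border macrophages, stood at 4885, 2364, 5037 and 2153 CPM, lower in both LPS libraries. F13a1, a clotting factor subunit, stood at 2005, 3492, 1729 and 2091 CPM, and the haemoglobin receptor Cd163 at 835, 1081, 727 and 794 CPM. Lyve1, a hyaluronan receptor, stood at 540, 879, 430 and 471 CPM, and the carbonyl reductase Cbr2 at 538, 682, 495 and 432 CPM. All 6 genes were found in 32 macrophages of APOE3 NaCl, 79 of APOE3 LPS, 20 of APOE4 NaCl and 35 of APOE4 LPS.

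At the threshold of the rule, 16, 13, 17 and 42 macrophages had exactly 3 marker genes, for APOE3 (NaCl, LPS) and APOE4 (NaCl, LPS), and 8, 23, 13 and 89 barcodes had 2 and were left out. Ms4a7 stood at 545, 488, 519 and 273 CPM in those with 3 and at 408, 156, 101 and 94.9 CPM in those with 2. Before the limits on genes of other cells there were 153, 196, 116 and 193 barcodes with at least 3 marker genes.

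The first comparison asked how these macrophages differ 24 h after LPS. In both genotypes the most abundant transcript of the macrophages after LPS was Saa3, an acute-phase serum amyloid protein, which was nearly absent after NaCl. Lcn2, Ccl5, Cxcl13 and Il1rn were also higher in both genotypes, and Slc40a1, Pla2g2d and Ccl24 were lower. Of the lists, the other border macrophage genes and MHC class II presentation had medians below -1 in both genotypes. Of 5921 measured genes (20 or more UMIs in either library), 549 were at least 2-fold higher in APOE3 LPS than in APOE3 NaCl, which is 9.27%, and 438 were at least 2-fold lower, which is 7.40%. Of 5410 measured in APOE4 macrophages, 669 (12.4%) were at least 2-fold higher and 463 (8.56%) at least 2-fold lower. The counts of each list below are to be read beside these shares. The median log2 ratio over all measured genes was -0.03 in APOE3 and 0.01 in APOE4.

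The 2 genotypes use separate pairs of libraries. Over 2307 genes with at least 50 UMIs in 1 library of each pair, the log2 ratios had a Pearson r of 0.72, a description across genes that are not independent replicates. Of the 323 genes at least 2-fold apart in APOE3, 287 (88.9%) had the same direction in APOE4.

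Saa3 had 1 UMI in the APOE3 macrophages after NaCl and 34999 after LPS, and 0 and 29049 in the APOE4 macrophages. It made up 3.96% of all macrophage UMIs in APOE3 LPS and 4.16% in APOE4 LPS. The ratio was 15045 (2700 to 594256) in APOE3, and APOE4 was at least 4001-fold higher, from a floor of 3 UMIs. After thinning to 1000 UMIs it was found in 80.5% (73.3 to 86.6) of APOE3 LPS and 74.5% (67.0 to 81.1) of APOE4 LPS macrophages, and without thinning in 84.6% and 80.3%. Thinned oligodendrocytes had it in 1.84% and 38.7%, at median depths of 5777 and 2147 UMIs before thinning against 5480 and 3027 in macrophages. Microglia held 894 CPM in APOE3 LPS and 7090 CPM in APOE4 LPS, below the 39643 and 41583 CPM of the macrophages. Cells differed widely: Saa3 took a median of 3.02% of a cell's UMIs and at most 17.7% in APOE3 LPS, and a median of 1.02% and at most 22.1% in APOE4 LPS.

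Lcn2, the siderophore-binding lipocalin that keeps iron from bacteria, had 0 UMIs in both NaCl libraries, 3389 in APOE3 LPS and 3340 in APOE4 LPS. It was at least 486-fold higher in APOE3 and at least 460-fold higher in APOE4. Thinned, it was found in 43.6% and 45.9% of macrophages and in 1.76% and 24.8% of oligodendrocytes. In APOE4 LPS the oligodendrocyte shares of Saa3 and Lcn2 thus were high, and the part of free RNA in the macrophage values of that library was not tested.

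Cxcl13, which recruits B cells, was concentrated in few cells. It had 1 UMI in each NaCl library, 1092 in APOE3 LPS and 340 in APOE4 LPS, with ratios of 469 (84.1 to 18558) and 140 (25 to 5565). It was found in 16.8% of thinned macrophages of APOE3 LPS and 9.55% of APOE4 LPS, and 1 cell held 26.0% and 19.7% of its UMIs. Oligodendrocytes had it in 0.0801% and 0.409%, well under those shares.

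Saa3, Lcn2 and Cxcl13 stood among the leading genes after LPS, and the 250 bases before their transcription starts are shown so that the letters around the start can be read beside the values. They are from RefSeq, build GRCm38.p6, printed 5′ to 3′ on the strand of the gene. Capitals mark matches to the C/EBP motif TTGCNNAA or the interferon-stimulated response element GAAANNGAAA on either strand. The kappaB motif was searched too and has no match in these 3 windows. The windows are chr7:46715677-46715926 (minus strand) for Saa3, chr2:32387740-32387989 (minus strand) for Lcn2 and chr5:95956689-95956938 (plus strand) for Cxcl13.
Saa3: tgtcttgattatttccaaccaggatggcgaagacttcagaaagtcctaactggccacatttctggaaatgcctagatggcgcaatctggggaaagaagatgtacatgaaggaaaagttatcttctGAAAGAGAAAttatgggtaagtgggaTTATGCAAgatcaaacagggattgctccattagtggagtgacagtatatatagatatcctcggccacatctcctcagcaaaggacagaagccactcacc
Lcn2: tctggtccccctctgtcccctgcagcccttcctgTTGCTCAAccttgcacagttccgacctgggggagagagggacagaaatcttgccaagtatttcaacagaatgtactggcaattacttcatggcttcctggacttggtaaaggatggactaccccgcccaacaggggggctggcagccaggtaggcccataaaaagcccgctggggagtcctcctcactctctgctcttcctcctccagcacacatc
Cxcl13: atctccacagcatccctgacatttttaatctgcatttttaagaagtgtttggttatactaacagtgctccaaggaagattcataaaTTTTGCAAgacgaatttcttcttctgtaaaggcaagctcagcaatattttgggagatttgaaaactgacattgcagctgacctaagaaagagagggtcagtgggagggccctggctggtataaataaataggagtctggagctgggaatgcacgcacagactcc
Each of the 3 windows holds 1 C/EBP match, at a first base 99, 216 and 164 bases before the start, and Saa3 has 1 response element match whose first base lies 125 before the start. Of the other genes named as higher after LPS in APOE3, Clec4e and Gda also hold a C/EBP match. S100a8, Jaml, Ctla2a and Il1rn hold none, and no window was at hand for Ccl5. Of the genes named as lower, Siglech holds a C/EBP match, and Pla2g2d, Dbp, Cd209a, Mgl2, Egfl7 and Hpgd hold none. Of 32851 promoter windows of the same length, 9.56% hold a C/EBP match, 2.98% a response element match and 7.25% a kappaB match. A match is a string of letters and not a shown binding site.

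Chemokines, the secreted signals that recruit leukocytes, were mostly higher or within 2-fold after LPS. Of 16 measured genes of the list, 8 passed 2-fold upward and 1 downward in APOE3 (median log2 ratio 0.93), and 9 were higher and 1 lower in APOE4 (median 1.59). Ccl5, which draws T cells and monocytes, stood at 2.63 CPM after NaCl and 1636 after LPS in APOE3, and 6.93 and 1977 in APOE4, with ratios of 621 (111 to 24534) and 285 (78.8 to 2358). Both NaCl libraries held at most 2 UMIs of it. Ccl9 stood at 97.5, 591, 17.3 and 578 CPM in the same order, 6.06-fold (4.34 to 8.71) higher in APOE3 and 33.4-fold (14.2 to 103) in APOE4. Its levels after LPS were close in the 2 genotypes, and the NaCl level was the lower one in APOE4. Ccl7, a monocyte attractant, was 2.05-fold and 2.80-fold higher, and Ccl6 3.03-fold and 6.92-fold.

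One chemokine went the other way. Ccl24, an eotaxin made by alternatively activated macrophages, stood at 983 CPM after NaCl and 105 after LPS in APOE3, and 1323 and 117 in APOE4. It was 9.33-fold (7.42 to 11.8) lower in APOE3 and 11.3-fold (8.86 to 14.5) lower in APOE4, and the 2 NaCl libraries were both high.

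Among cytokines and NF-kB targets, 9 of 18 measured genes were at least 2-fold higher in APOE3 and 6 of 18 in APOE4, with none lower in either. Il1b, the inflammatory interleukin 1 beta, stood at 184 CPM after NaCl and 727 after LPS in APOE3, and 388 and 525 in APOE4, 3.94-fold (3.08 to 5.12) and 1.35-fold (1.09 to 1.69) higher. Il1a was 5.24-fold and 1.65-fold higher, and Ptgs2, the inducible cyclooxygenase, 8.17-fold and 2.75-fold. Sod2, the mitochondrial superoxide dismutase, was 3.48-fold and 6.72-fold higher. Tnf stood at 84.3, 128, 90.1 and 130 CPM, under the 2-fold mark in both genotypes, while in microglia it was 3.29-fold and 3.08-fold higher.

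Of the feedback and decoy regulators, 6 of 9 measured genes were at least 2-fold higher in APOE3 and 5 of 9 in APOE4, with median log2 ratios of 1.96 and 2.0. Without the macrophages holding 3 or more UMIs of other immune markers those medians were 1.41 and 0.94. Il1rn, the natural antagonist of the interleukin 1 receptor, had 0 UMIs after NaCl and 90 after LPS in APOE3, and 1 and 103 in APOE4. It was at least 12.9-fold higher in APOE3, and the APOE4 ratio was 42.6 (7.47 to 1697). Socs3, an inhibitor of cytokine receptor signalling, was 3.88-fold and 3.99-fold higher. Il10, an anti-inflammatory cytokine, was 6.71-fold and 4.86-fold higher.

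Of the other genes that the naming rule selected as higher, Jaml, an adhesion molecule of leukocytes, had 0 UMIs in both NaCl libraries and stood at 156 and 278 CPM in the LPS libraries. Clec4e, the receptor Mincle for fungal and mycobacterial glycolipids, also had 0 after NaCl and stood at 110 and 160 CPM after LPS. Gda, the guanine deaminase, was 36.8-fold and 22.5-fold higher, and Ttc39c 35.9-fold and 50-fold. Ctla2a, a cathepsin inhibitor, stood at 2.63, 225, 6.93 and 922 CPM, and oligodendrocytes of APOE4 LPS held 389 CPM of it. Spp1, osteopontin, stood at 47.4, 571, 0 and 182 CPM, and 1 cell held 40.1% of its UMIs in APOE3 LPS. S100a8, a neutrophil protein, had 397 UMIs in APOE3 LPS, of which 1 cell held 85.6%, and 149 in APOE4 LPS, of which 1 cell held 39.6%. Without the macrophages holding 3 or more UMIs of other immune markers, its log2 ratio was 1.33 in APOE3 and 1.39 in APOE4. The neutrophil list as a whole summed to 55.3 and 72.7 CPM after NaCl and to 1179 and 251 CPM after LPS, with 8, 9, 2 and 6 of its 10 genes at 0 in APOE3 NaCl, APOE4 NaCl, APOE3 LPS and APOE4 LPS.

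**Figure D2:**
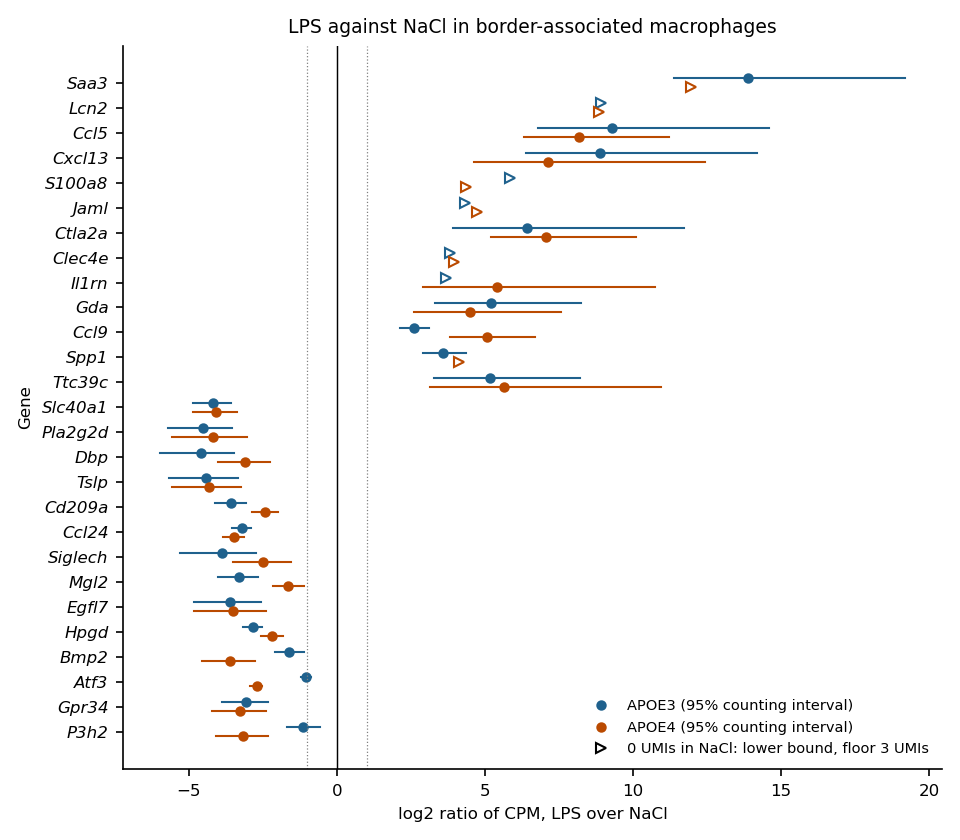
Log2 ratio of CPM in LPS over NaCl macrophages for the genes chosen by the naming rule, in APOE3 (blue) and APOE4 (orange), with 95% counting intervals and triangles for lower bounds where the NaCl library had 0 UMIs. The dotted lines mark 2-fold, Saa3 reaches a ratio of 15045 in APOE3, and the genes from Slc40a1 downward lie below 0 in both genotypes.

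Among iron genes, 2 of 9 measured were at least 2-fold higher and 2 lower in APOE3, and 4 were higher and 2 lower in APOE4. Slc40a1, ferroportin, the only known cellular iron exporter, stood at 516 CPM after NaCl and 28.3 after LPS in APOE3, and 464 and 27.2 in APOE4. It was 18.2-fold (12 to 28.9) lower in APOE3 and 17.1-fold (10.5 to 29.2) lower in APOE4. The NaCl libraries were close to each other, and so were the LPS libraries. Thinned, 36.0% and 30.2% of NaCl macrophages held it against 3.36% and 3.18% of LPS macrophages, and 0.102% to 0.546% of oligodendrocytes did. Ncoa4, the adaptor that delivers ferritin for breakdown, was 4.24-fold and 4.03-fold lower. Fth1, the ferritin heavy chain, stood at 4862, 9687, 4957 and 15560 CPM, 1.99-fold and 3.14-fold higher, and microglia had it 3.23-fold and 6.30-fold higher.

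The resting border macrophage programme was lower after LPS in both genotypes. Of 26 genes of that list not used in the rule, 13 were at least 2-fold lower and 2 higher in APOE3 (median log2 ratio -1.01), and 14 were lower and 2 higher in APOE4 (median -1.20). In microglia, where 18 genes of the list were measured, the medians were 0.18 and 0.08. These medians are over another set of genes than those of the macrophages. They leave out genes nearly absent from microglia, such as Cd209a with 0 to 2 UMIs in a library. They also hold genes near absence there, such as Clec4n at 0.0610 to 1.38 CPM. Cd209a, a C-type lectin of the DC-SIGN family, stood at 519 CPM after NaCl and 43.0 after LPS in APOE3, and 530 and 98.8 in APOE4, 12.1-fold (8.49 to 17.5) and 5.37-fold (4.01 to 7.24) lower. Mgl2, a galactose-binding lectin, was 9.96-fold and 3.11-fold lower. Hpgd, which inactivates prostaglandins, was 7.21-fold (5.75 to 9.10) and 4.55-fold (3.51 to 5.93) lower. In the LPS libraries 1 cell held 15.7% of the Hpgd UMIs in APOE3 and 57.6% in APOE4. Without thinning, 33.6% and 18.5% of LPS macrophages held it. Maf, a transcription factor of resident macrophages, was 2.05-fold and 2.31-fold lower, and Gas6, a ligand for the uptake of dying cells, 2.57-fold and 2.88-fold.

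The 2 genes of the list that were higher in both genotypes were Siglec1 and Ms4a6c. Siglec1, a sialic acid receptor inducible by interferon, stood at 73.8 CPM after NaCl and 197 after LPS in APOE3, and 65.8 and 160 in APOE4, 2.67-fold (1.79 to 4.14) and 2.44-fold (1.49 to 4.20) higher. Ms4a6c was 3.40-fold and 2.56-fold higher.

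Genes outside the border macrophage list were also lower after LPS. Pla2g2d, a secreted phospholipase of resting lymphoid macrophages, stood at 237 CPM after NaCl and 10.2 after LPS in APOE3, and 184 and 10.0 in APOE4, 23.3-fold (11.7 to 52.5) and 18.3-fold (8.30 to 47.8) lower. Tslp, an epithelial-type cytokine, was 21.2-fold (10.2 to 51.0) and 20-fold (9.56 to 48.2) lower. Both genes were high in the 2 NaCl libraries and near the floor of 3 UMIs after LPS, with 7 to 9 UMIs in a library. Egfl7 was 12.1-fold and 11.5-fold lower, the purinergic-type receptor gene Gpr34 8.45-fold and 9.68-fold, and the clock gene Dbp 24.3-fold and 8.55-fold. Gpr34 is also on the list of microglial marker genes. In the macrophages that list summed to 1713 CPM after NaCl and 885 after LPS in APOE3, and 1819 and 852 in APOE4. Dbp was also 7.29-fold and 5.12-fold lower in microglia. Siglech was 15-fold and 5.70-fold lower, but the rule capped its UMIs, so this value is partly set by the rule. Bmp2, a growth factor, was 3.05-fold lower in APOE3 and 12.3-fold in APOE4. P3h2, a collagen hydroxylase, was 2.20-fold lower in APOE3 and 9.03-fold in APOE4, and the stress-response factor Atf3 2.07-fold and 6.60-fold. The counting intervals of Bmp2, P3h2 and Atf3 did not overlap between the genotypes. As a mean of CPM per cell the APOE4 log2 ratios of Bmp2, Egfl7 and Atf3 were -2.69, -2.25 and -2.51.

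Regulators of macrophage identity and growth differed one by one. Of 14 measured, 1 was at least 2-fold higher and 3 lower in APOE3, and 2 were higher and 7 lower in APOE4. Csf1r, the receptor for the macrophage growth factor, was 1.84-fold and 2.60-fold lower. Klf2, a factor that restrains inflammatory genes, was 2.05-fold and 4.41-fold lower.

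Growth factors and matrix genes gave 4 higher and 3 lower of 9 measured in APOE3, and 4 higher and 2 lower in APOE4. Igf1, insulin-like growth factor 1, stood at 287, 106, 360 and 119 CPM, 2.70-fold (2.03 to 3.59) and 3.03-fold (2.25 to 4.10) lower. Pdgfc was 3.88-fold and 5.73-fold lower. The matrix protein gene Ecm1 was 3.30-fold and 4.63-fold higher, and the membrane protease Mmp14 5.07-fold and 4.55-fold. The median of this list in APOE4 was -0.06, and it was -0.67 with at least 2000 UMIs per barcode and 1.05 as a mean of CPM per cell.

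Interferon-stimulated genes were higher in both genotypes. Of 22 measured in APOE3, 15 passed 2-fold upward and 1 downward (median log2 ratio 1.48), and of 18 measured in APOE4, 11 were higher and 1 lower (median 1.12). With at least 4 rule genes the APOE3 median was 2.11. Ifitm3, a membrane protein that blocks viral entry, stood at 809 CPM after NaCl and 1822 after LPS in APOE3, and 807 and 1984 in APOE4, 2.25-fold (1.99 to 2.55) and 2.46-fold (2.14 to 2.84) higher. Rsad2, the antiviral protein viperin, was 6.63-fold and 6.06-fold higher. Irf7, the master regulator of the interferon response, was 16.1-fold (4.31 to 136) and 3.79-fold (1.63 to 10.8) higher. The one lower gene was Irf1, a transcription factor, 2.04-fold lower in each genotype, whereas in microglia it was 1.48-fold and 1.5-fold higher.

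Complement genes gave 3 higher of 12 measured in APOE3, and 5 higher and 1 lower of 12 in APOE4. Cfb, factor B of the alternative pathway, had 1 UMI in each NaCl library, 75 in APOE3 LPS and 64 in APOE4 LPS, with ratios of 32.2 (5.61 to 1290) and 26.4 (4.58 to 1061). C3, on which all pathways converge, had 0, 50, 2 and 54 UMIs for APOE3 (NaCl, LPS) and APOE4 (NaCl, LPS). It was at least 7.16-fold higher in APOE3, and the APOE4 ratio was 11.2 (2.94 to 94.5). C1qa of the classical pathway was 1.54-fold and 1.05-fold higher.

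Scavenger and endocytic receptors went both ways, with list medians of -0.04 in APOE3 and -0.20 in APOE4. In APOE3, 3 of 19 measured were at least 2-fold higher and 3 lower, and in APOE4 3 of 18 were higher and 5 lower. Over all measured genes 9.27% were higher and 7.40% lower in APOE3, and 12.4% and 8.56% in APOE4. Msr1, the class A scavenger receptor, stood at 184, 522, 197 and 604 CPM, 2.83-fold and 3.06-fold higher. Fcgr4, an activating receptor for IgG, was 15.5-fold (6.51 to 48.2) and 24.8-fold (8.35 to 121) higher. The fatty acid receptor Cd36 was 2.89-fold and 4.84-fold lower, and Axl, a receptor for Gas6, 3.28-fold and 2.32-fold. The sensing machinery itself gave 2 of 10 measured genes at least 2-fold higher in APOE3 and 0 of 10 in APOE4, and Tlr4 was 1.48-fold and 1.55-fold lower.

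Genes responsive to glucocorticoids gave 5 higher and 1 lower of 11 measured in APOE3, and 7 higher of 11 in APOE4. Fkbp5, which tunes the glucocorticoid receptor, was 3.20-fold (2.45 to 4.25) and 2.19-fold (1.67 to 2.90) higher. The list median in APOE3, 0.49, was 1.21 without the barcodes that a doublet caller marked. Oligodendrocytes also held 378 and 301 CPM of Fkbp5 after LPS, against 523 and 492 in the macrophages. Plin2, a lipid droplet coat protein, was 5.01-fold and 4.46-fold higher, one of 2 lipid and lysosome genes of 13 that were at least 2-fold higher in APOE3 and of 3 in APOE4. Pfkfb3, which speeds glycolysis, was 4.21-fold and 5.40-fold higher, the one such gene of 10 measured in APOE3 and one of 5 of 11 in APOE4. None of 12 cell cycle genes was measured.

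Apoe reads assigned to the mouse gene were low and do not measure the human transcript in full. How reads of human APOE were counted is not given in the sources used here. Apoe stood at 219 CPM after NaCl and 102 after LPS in APOE3, and 322 and 83 in APOE4, 2.15-fold (1.57 to 2.92) and 3.88-fold (2.77 to 5.48) lower after LPS. In microglia it was 1.82-fold and 3.08-fold higher.

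**Figure D3:**
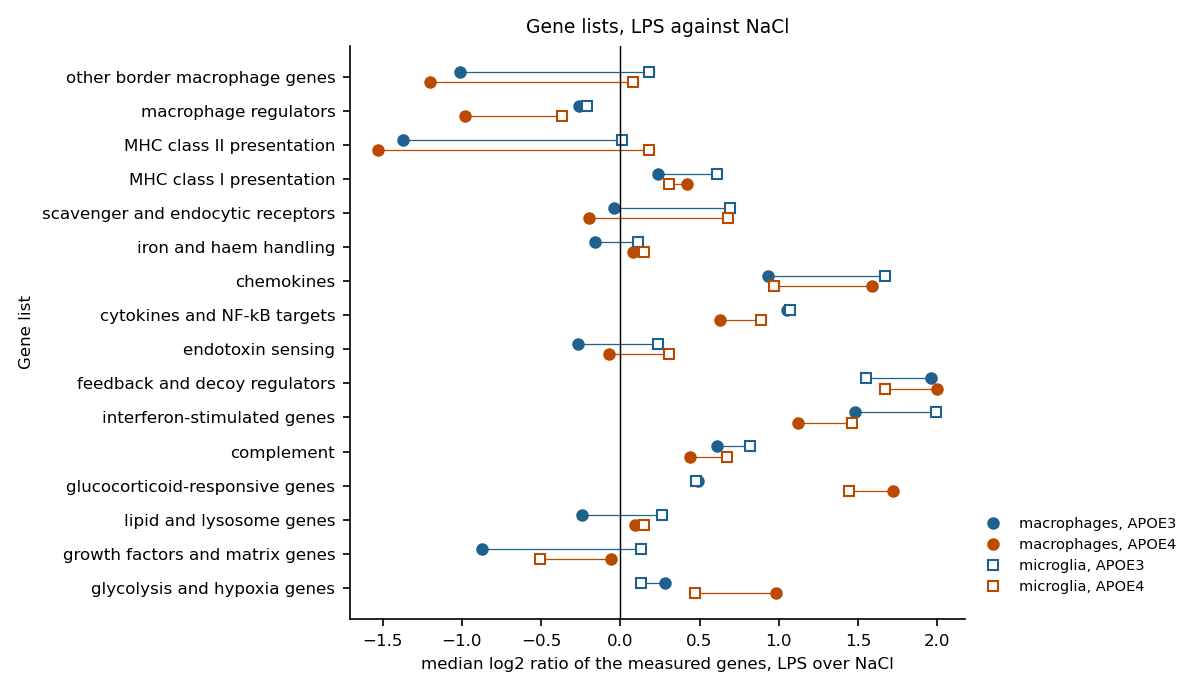
Median log2 ratio of the measured genes of each list, LPS over NaCl, in macrophages (filled circles) and microglia (open squares) of APOE3 (blue) and APOE4 (orange), the horizontal lines joining the 2 cell types of a genotype. The MHC class II list lies at -1.37 and -1.53 in macrophages and at 0.01 and 0.18 in microglia, and the interferon-stimulated genes lie above 1 in both cell types.

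RNA of the MHC class II presentation genes, summed over the macrophages, was lower after LPS. Of 8 measured genes of the list, 5 were at least 2-fold lower and 0 higher in each genotype, with median log2 ratios of -1.37 and -1.53. With at least 4 rule genes the APOE4 median was -2.47. H2-Aa, an alpha chain of the class II molecule, stood at 603 CPM after NaCl and 135 after LPS in APOE3, and 707 and 166 in APOE4. It was 4.48-fold (3.57 to 5.63) lower in APOE3 and 4.26-fold (3.37 to 5.39) lower in APOE4. H2-Eb1 was 5.44-fold and 5.17-fold lower and H2-Ab1 3.98-fold and 3.99-fold, and both NaCl libraries lay above both LPS libraries for each of the chains. Cd74, the invariant chain, was 3.12-fold (2.70 to 3.61) and 3.46-fold (3.00 to 3.99) lower, and in microglia 3.15-fold and 5.89-fold higher. The share of macrophages holding Cd74, without thinning, was higher after LPS. It was 26.1% after NaCl and 41.6% after LPS in APOE3, and 27.9% and 38.2% in APOE4. Depth was not held equal for these shares, and the macrophages held a median of 2878, 5480, 2995.5 and 3027 UMIs in the same order. Oligodendrocytes held Cd74 in 0.433%, 0.881%, 0.375% and 6.55% of cells. Thinned shares over the class II genes are given below. MHC class I genes gave 4 higher of 13 measured in APOE3 and 3 of 13 in APOE4, with 0 lower.

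The class II genes sat in few cells. With each cell thinned to 1000 UMIs, macrophages with at least 3 UMIs over H2-Aa, H2-Ab1, H2-Eb1 and Cd74 numbered 14 of 111 in APOE3 NaCl (12.6%, 7.07 to 20.3), 10 of 149 in APOE3 LPS (6.71%, 3.27 to 12), 11 of 86 in APOE4 NaCl (12.8%, 6.56 to 21.7) and 8 of 157 in APOE4 LPS (5.10%, 2.23 to 9.79). The share was lower in the LPS library of each genotype, and the intervals overlapped. Counting macrophages with at least 1 such UMI, the shares were 19.8%, 20.8%, 19.8% and 19.1%, so that the APOE3 share was no longer lower after LPS and the APOE4 shares were close. With at least 5 they were 9.91%, 1.34%, 10.5% and 4.46%. Without thinning the shares were 18.9%, 18.1%, 19.8% and 13.4%. Oligodendrocytes passed the same count in 0.0400% to 0.511% of cells. The class is a range of a count and not a type: 8, 21, 6 and 22 macrophages held 1 or 2 such UMIs, just under the limit, and 3, 8, 2 and 1 held 3 or 4.

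Lyve1, a gene of the rule, is given for description. After thinning, 21.6% (14.4 to 30.4) of macrophages after NaCl and 43.6% (35.5 to 52.0) after LPS in APOE3, and 26.7% (17.8 to 37.4) and 33.8% (26.4 to 41.7) in APOE4 held at least 1 UMI of it, and 0% to 1.23% of oligodendrocytes did. Without thinning the shares were 40.5%, 74.5%, 40.7% and 47.1%. In both classes were 0, 3, 0 and 0 macrophages, the 3 among the 10 class II macrophages of APOE3 LPS, and the counts of 0 allow up to 3.27% in APOE3 NaCl, 4.20% in APOE4 NaCl and 2.32% in APOE4 LPS.

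**Figure D4:**
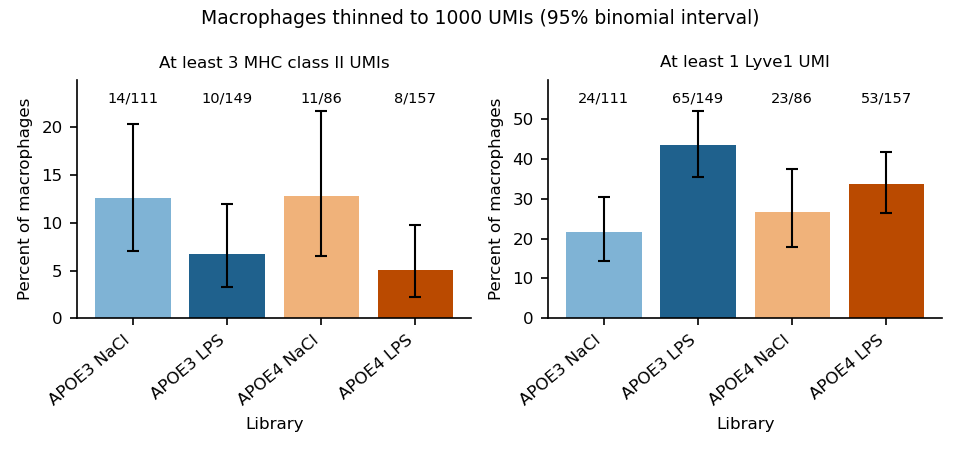
Share of macrophages with at least 3 UMIs of MHC class II genes (left) and at least 1 UMI of Lyve1 (right) after thinning each cell to 1000 UMIs, with 95% binomial intervals and the cell counts above the bars. The class II share is 12.6% and 12.8% in the NaCl libraries and 6.71% and 5.10% in the LPS libraries.

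Cells of the class II range differed from the rest in genes that did not define the range, as a description of the same cells. Mrc1 is a gene of the rule, so its values are partly set by the choice of cells. It stood at 2797 CPM in class II macrophages against 3658 in the others after NaCl and 2335 against 2987 after LPS in APOE3, and 2230 against 3691 and 1355 against 2582 in APOE4. It was the lower one in all 4 libraries. Cx3cr1, the fractalkine receptor, stood at 992 against 104, 157 against 144, 840 against 177 and 613 against 156 CPM. Il1b was the higher one in all 4, at 722 against 113, 1535 against 651, 637 against 354 and 1636 against 459 CPM. Ccl24 stood at 338 against 1068 CPM in APOE3 NaCl and 203 against 1476 in APOE4 NaCl. Saa3 was present in both ranges after LPS, at 16394 against 41840 CPM in APOE3 and 33868 against 42041 CPM in APOE4. Ccr2, a chemokine receptor of monocytes, stood at 45.1 against 8.95, 91.8 against 7.44, 145 against 0 and 0 against 0 CPM, on few UMIs. Each class II group held only 8 to 14 cells.

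RNA of other cell types in the macrophages is given as summed CPM of marker lists, for APOE3 (NaCl, LPS) and APOE4 (NaCl, LPS). Microglial genes, limited by the rule, summed to 1713, 885, 1819 and 852 CPM, and oligodendrocyte genes to 1365, 830, 1368 and 1059 CPM. Monocyte genes summed to 18.4, 136, 55.4 and 149 CPM and were higher in both LPS libraries. Dendritic cell genes summed to 1001, 817, 1102 and 731 CPM, and genes of T, NK and B cells to 148, 21.5, 156 and 47.2 CPM. Most of the dendritic cell sum came from genes that are also on other lists. Bst2, also an interferon-stimulated gene, held 453, 745, 523 and 620 CPM of it. Cd209a, also a border macrophage gene, held 519, 43.0, 530 and 98.8 CPM. Endothelial genes stood at 387, 234, 461 and 321 CPM, mural genes at 23.7, 14.7, 173 and 40.1 CPM and fibroblast genes at 34.3, 26.1, 24.2 and 32.9 CPM. Of the endothelial sum, Bsg held 319, 191, 274 and 212 CPM, and microglia held 332 to 352 CPM of Bsg. Macrophages with at least 3 UMIs of other immune markers numbered 0, 7, 1 and 7. The part of these cells in the results was not tested beyond leaving out those macrophages.

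The second comparison asked how APOE4 macrophages differ from APOE3 macrophages after NaCl. Of 3720 measured genes, 93 (2.50%) stood at least 2-fold above APOE3 in APOE4 and 158 (4.25%) at least 2-fold lower, smaller shares than in either LPS comparison. Of 11 measured cytokines and NF-kB targets, 2 were at least 2-fold higher, Il1a and Il1b, and 1 lower, Il18. Il18, an interleukin 1 family cytokine, stood at 71.1 CPM against 34.6 CPM, 2.05-fold (0.963 to 4.76) lower. This comparison and that after LPS share libraries with the LPS comparisons above, so their values are not independent of them.

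Nlrp3, the sensor of the inflammasome, stood at 47.4 CPM in APOE3 NaCl and 191 in APOE4 NaCl, 4.02-fold (2.32 to 7.27) higher, and at 168 and 145 CPM in APOE3 LPS and APOE4 LPS. The APOE3 NaCl library was the low one. In microglia it was 1.09-fold lower in APOE4 NaCl. Il1b was 2.10-fold (1.55 to 2.88) higher and Il1a 3.11-fold (1.48 to 6.97). The immediate-early genes Nr4a1, Egr1 and Atf3 were 2.51-fold (1.92 to 3.29), 2.06-fold (1.68 to 2.55) and 1.78-fold (1.60 to 1.99) higher. Nr4a1 stood at 227, 250, 568 and 157 CPM for APOE3 (NaCl, LPS) and APOE4 (NaCl, LPS), so APOE4 NaCl was the high one. Cd14, the co-receptor for LPS, stood at 596, 1137, 1199 and 1144 CPM, 2.01-fold (1.70 to 2.39) higher in APOE4 NaCl, and again APOE3 NaCl was the low one. Ccl2, the main monocyte attractant, was 1.96-fold, Stat3 2.37-fold and the activation marker Cd83 1.80-fold higher. As a mean of CPM per cell the log2 ratios of Atf3 and Cd83 were 0.61 and 0.62, in place of 0.84 and 0.85. With at least 4 rule genes those of Nr4a1 and Atf3 were 1.79 and 1.11. The polarity scaffold gene Mpp7 was 5.26-fold (2.49 to 12.4) higher and the semaphorin receptor Plxnd1 3.51-fold (1.57 to 8.57). Mpp7 was 2.41-fold higher in APOE4 NaCl microglia too.

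Lower in APOE4 after NaCl was Cxcl1, which recruits neutrophils, with 45.0 CPM against 387 in APOE3 NaCl, 8.60-fold (4.88 to 16.5) lower. After LPS it stood at 685 CPM in APOE3 and 557 in APOE4, so APOE4 NaCl was the low library. Ccl9 was 5.63-fold lower, Ccl12, a monocyte attractant, 2.28-fold (1.91 to 2.74), and 4 of 13 measured chemokines were at least 2-fold lower with 0 higher. Ccl12 was also 2.75-fold lower in APOE4 NaCl microglia. Wfdc17, a secreted inhibitor of inflammation, stood at 3099, 2082, 1289 and 2302 CPM for APOE3 (NaCl, LPS) and APOE4 (NaCl, LPS), 2.40-fold (2.14 to 2.71) lower in APOE4 NaCl. The inhibitory receptor Pirb was 2.80-fold (1.67 to 4.93) lower, the ficolin Fcna 2.72-fold and Vsig4, the complement receptor of resident macrophages, 3.69-fold (1.61 to 9.88). As a mean of CPM per cell the log2 ratio of Fcna was -0.47, under 2-fold, and with at least 4 rule genes that of Ccl12 was -0.89, also under 2-fold. Ifi27l2a was 1.77-fold and the ceramidase gene Acer3 2.52-fold lower.

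Ttr, transthyretin, a product of choroid plexus epithelium, stood at 14993 CPM after NaCl and 4397 after LPS in APOE3, and 4400 and 3490 in APOE4. In APOE3 NaCl it stood at 52772 CPM in macrophages with 3 or 4 rule genes and at 586 CPM in those with 5 or 6. The summed choroid plexus list was 15805, 4628, 4555 and 3752 CPM, and the astrocyte list 1884, 623, 776 and 1431 CPM. Its log2 ratio of APOE4 to APOE3 after NaCl was -1.77, and it was -0.50 without macrophages having over 2% Ttr or over 1% haemoglobin UMIs, an alternative chosen after seeing the data. The other genes chosen by the naming rule for this comparison kept their direction without those cells.

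**Figure D5:**
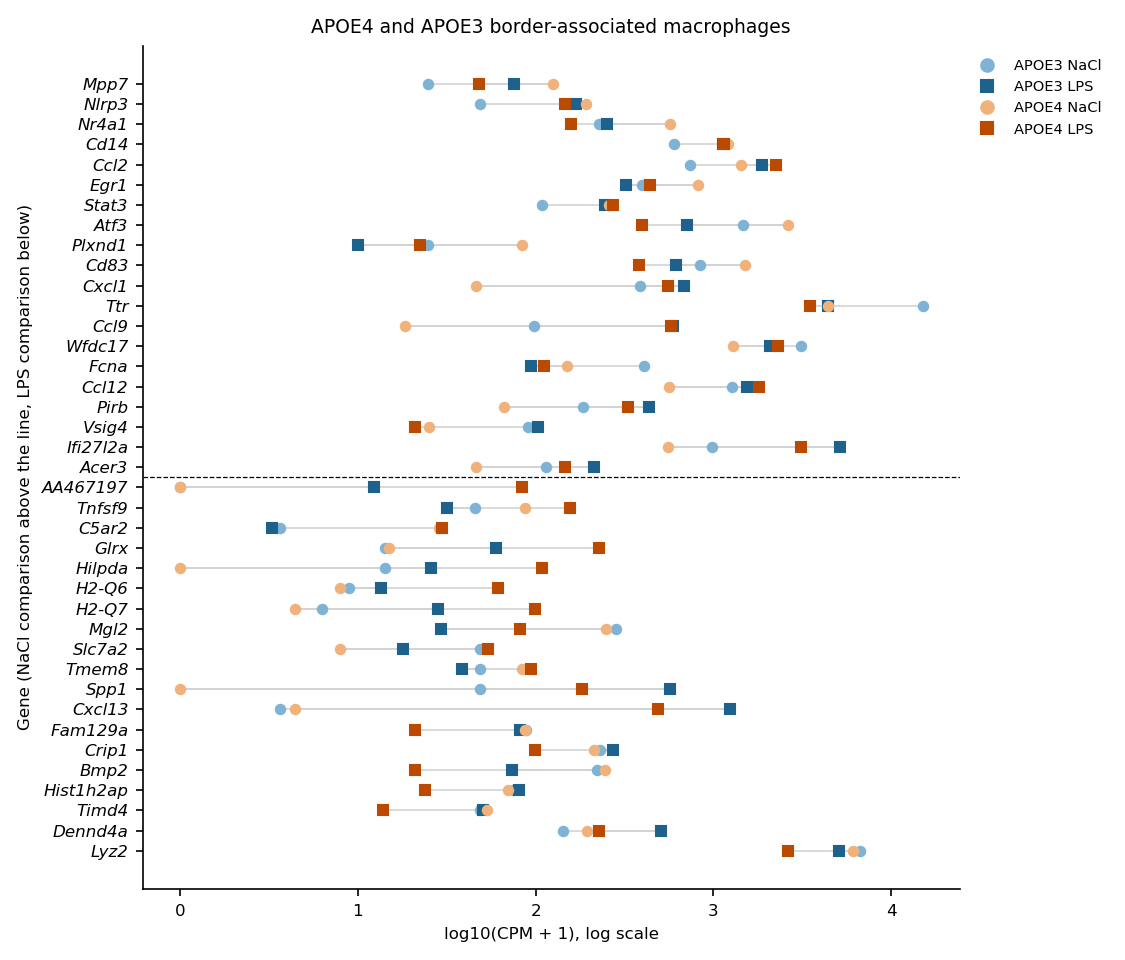
Log10 of CPM + 1 in the macrophages of each library for the genes chosen by the naming rule in the comparison of genotypes after NaCl (above the dashed line) and after LPS (below it), with circles for NaCl, squares for LPS, blue for APOE3 and orange for APOE4. Nlrp3 is low in APOE3 NaCl alone (47.4 CPM against 145 to 191), and Vsig4 is low in both APOE4 libraries (24.2 and 20 CPM against 89.6 and 102).

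After LPS, 324 of 6205 measured genes (5.22%) stood at least 2-fold above APOE3 in APOE4 macrophages and 224 (3.61%) at least 2-fold lower. Without called doublets 211 were higher, and on the scale of log2 of CPM + 10 the counts were 208 higher and 80 lower. The leading products of the LPS response were close: Saa3 differed 1.05-fold (1.03 to 1.07) and Lcn2 1.25-fold (1.19 to 1.31). Vsig4 stood at 102 CPM in APOE3 LPS and 20 in APOE4 LPS, 5.09-fold (2.88 to 9.68) lower, so it was low in both APOE4 libraries. In macrophages with 5 or 6 rule genes Vsig4 stood at 104 CPM in APOE3 LPS and 34.6 in APOE4 LPS, and in those with 3 or 4 at 84.8 and 0 CPM. Macrophages with 3 or 4 rule genes numbered 29 in APOE3 LPS and 85 in APOE4 LPS, and their part in the values of this comparison was not tested. Timd4, a receptor for dying cells on long-lived macrophages, stood at 47.4, 49.8, 52.0 and 12.9 CPM for APOE3 (NaCl, LPS) and APOE4 (NaCl, LPS), 3.87-fold (1.86 to 9.01) lower in APOE4 LPS, which alone was low.

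Cxcl13 was 2.54-fold (2.25 to 2.88) lower in APOE4 LPS and Spp1 3.14-fold. The share of thinned macrophages holding Spp1 went the other way, at 8.72% in APOE3 LPS and 14.6% in APOE4 LPS. In these libraries 1 cell held 40.1% and 16.5% of its UMIs, and thinned oligodendrocytes had it in 0.561% and 4.57%. Without the macrophages holding 3 or more UMIs of other immune markers the log2 ratio of Cxcl13 was -0.95 in place of -1.35. Lyz2, lysozyme, stood at 6632, 5051, 6073 and 2617 CPM, 1.93-fold (1.83 to 2.04) lower, with APOE4 LPS the low one. Bmp2 was 3.62-fold, Fam129a 4.01-fold, the histone gene Hist1h2ap 3.46-fold, Crip1 2.73-fold and Dennd4a 2.22-fold lower. Without the macrophages holding other immune markers the log2 ratio of Fam129a was -0.79 and that of Dennd4a -0.88, both under 2-fold, and that of Spp1 was -1.98. Of 22 measured interferon-stimulated genes, 5 were at least 2-fold lower in APOE4 LPS and 0 higher. They were Ifit1, Ifit2, Ifit3, Isg15 and Gbp5, with Isg15 2.16-fold (1.52 to 3.12) and Ifit3 2.67-fold (1.51 to 5.00) lower.

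Higher in APOE4 LPS was C5ar2, a receptor for the complement fragment C5a, at 2.63, 2.27, 27.7 and 28.6 CPM for APOE3 (NaCl, LPS) and APOE4 (NaCl, LPS). It rested on 1, 2, 8 and 20 UMIs and was high in both APOE4 libraries, with a ratio of 12.6 (3.07 to 112) after LPS. Microglia had it 5.34-fold higher in APOE4 NaCl and 5.22-fold in APOE4 LPS. Mgl2 was 2.83-fold (1.74 to 4.73) higher, Tnfsf9, a ligand that costimulates T cells, 5.06-fold (3.29 to 8.02), and Glrx, glutaredoxin, 3.84-fold (2.79 to 5.36). As a mean of CPM per cell the log2 ratios of Glrx and H2-Q7 were 1.23 and 1.03. Hilpda, a lipid droplet protein induced by low oxygen, was 4.31-fold, the cationic amino acid transporter gene Slc7a2 3.12-fold, Tmem8 2.49-fold and AA467197 7.33-fold higher. The class I genes H2-Q6 and H2-Q7 were 4.83-fold and 3.63-fold higher, but they are near-identical copies between which reads can be split.

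Of 11 measured glucocorticoid-responsive genes, 4 passed 2-fold upward in APOE4 LPS. The metallothionein Mt2 stood at 823 CPM in APOE3 LPS and 2527 in APOE4 LPS, 3.07-fold (2.81 to 3.35) higher, and Mt1 was 2.07-fold higher. In microglia Mt2 was 5.77-fold higher, and oligodendrocytes of APOE4 LPS held 1458 CPM against 191. Of the astrocyte list, 5 of 8 measured passed 2-fold upward in APOE4 LPS macrophages, and its part in these values was not tested. The MHC class II median of the same comparison was 0.31, and it was -0.61 with at least 4 rule genes and 0.87 without macrophages holding other immune markers.

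The log2 ratio of LPS to NaCl in APOE4 minus that in APOE3, called the difference here, could be computed for 5050 genes. It had a median of -0.02, with 414 genes at or above 1 and 332 at or below -1. Cxcl1 had a difference of 2.76 (1.93 to 3.58), Ccl12 1.40 (1.12 to 1.68) and Wfdc17 1.41 (1.22 to 1.60). Wfdc17 was 1.49-fold lower after LPS in APOE3 and 1.79-fold higher in APOE4. Slc7a2 had a difference of 4.11 (2.02 to 6.19) on 18, 15, 2 and 37 UMIs. The Wfdc17 difference was 0.74 as a mean of CPM per cell and 1.69 with at least 2000 UMIs. Ttr had a difference of 1.44, which ranged over the alternatives from 0.19 without called doublets and 0.35 with at least 4 rule genes to 2.20 without macrophages rich in Ttr or haemoglobin RNA and 2.78 as a mean of CPM per cell.

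On the other side, Nlrp3 had a difference of -2.19 (-3.03 to -1.35), being 3.53-fold higher after LPS in APOE3 and 1.32-fold lower in APOE4. Nr4a1 had -1.99 (-2.49 to -1.49), and Atf3 -1.67 (-1.93 to -1.41). The Atf3 difference was -1.38 as a mean of CPM per cell, and with at least 4 rule genes those of Nr4a1 and Atf3 were -2.57 and -1.97. Birc3, an inhibitor of cell death induced by NF-kB, stood at 52.7, 181, 135 and 103 CPM for APOE3 (NaCl, LPS) and APOE4 (NaCl, LPS), with a difference of -2.15 (-3.02 to -1.28). Nr4a1 and Atf3, each highest in APOE4 NaCl, were 3.61-fold and 6.60-fold lower after LPS in APOE4. In microglia the differences of Nlrp3 and Birc3 were -0.12 and -0.52.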

How the data were processed

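Cells from 4 libraries, each pooled from 3 mice, were sequenced with a droplet 3' method. The authors deposited raw UMI counts per gene and barcode, and the file headers name Cell Ranger 7.0.1, and mm10 is named in the submitters' processing notes. How human APOE reads were counted is not given in the sources used here. The matrices hold 32285 genes.

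UMIs were summed over the macrophages of each library and expressed as CPM of their total. Ratios have exact conditional binomial 95% intervals and shares exact Clopper-Pearson 95% intervals, both for counting error only. A gene was measured with at least 20 UMIs in 1 of 2 libraries, and a ratio against 0 UMIs used a floor of 3 UMIs over the library. The interval of a difference of log2 ratios is a Wald interval with 0.5 added to each count. Microglia had at least 3 of their 4 genes and at most 1 UMI over the rule's genes, and oligodendrocytes at least 3 of Mog, Mag, Mal, Cldn11, Mobp and Ermn.

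Named genes had at least 20 UMIs and were found in at least 10% of macrophages of the higher library, and had at least 3 times the oligodendrocyte CPM there. Genes of the rule, mitochondrial, ribosomal protein, Gm and Rik genes were left out. The 10 genes each way whose interval bound nearest 1 was farthest from it were named, and 5 each way for the difference. Genes from the lists were named besides. The macrophages, the lists and the tests were chosen with earlier results of these data known. Doublets were called with Scrublet in scanpy 1.11.5 and kept. Python 3.11.15, numpy 2.4.6, scipy 1.17.1 and pandas 2.3.3 were used, and the ratios were tested on simulated data. Alternatives changed the rule, depth, doublets, thinning, scaling and filters. The result for 1 gene of the lists is not reported here.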

Additional observations from a re-analysis of the deposited data

Results flagged for a closer look

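In the macrophages 2 genes that passed the filters for named genes went in opposite directions after LPS in the 2 genotypes, each at least 2-fold. The difference was not tested, since each group was 1 library. Mpp7 had 9 UMIs after NaCl and 66 after LPS in APOE3, and 36 and 33 in APOE4. It was 3.15-fold (1.56 to 7.20) higher after LPS in APOE3 and 2.64-fold (1.60 to 4.37) lower in APOE4, a difference of -2.99 (-4.18 to -1.80) on the log2 scale, and in microglia the difference was -1.20. Cenpx, a centromere protein gene, had 25, 120, 34 and 40 UMIs in the same order. It was 2.06-fold (1.33 to 3.31) higher in APOE3 and 2.06-fold (1.26 to 3.33) lower in APOE4, a difference of -2.07 (-2.97 to -1.17), and in microglia the difference was -0.19. In all, 33 genes had opposite ratios of at least 2-fold, where 5050 genes were measured in both genotypes. The 33 were counted without the classes of genes that the naming rule left out, and the 5050 include those classes. Of the 33, 2 passed the filters on UMIs, cells and oligodendrocyte level and had a difference with both interval bounds of the same sign. Those that did not pass include the astrocyte genes Slc1a2, Slc1a3 and Clu and the haemoglobin genes Hbb-bs, Hbb-bt, Hba-a1 and Hba-a2. These were lower after LPS in APOE3 and higher in APOE4, while Herc6 and Elmsan1 went the other way. The part of RNA from other cells in these ratios was not tested.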

How the results depend on the processing

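No paired analysis was possible because each group was 1 library and the labels number no replicates. No ratio or difference of a gene chosen by the naming rule changed sign. Alternatives were run for each such gene only in the comparisons where the rule chose it. Genes named from the lists alone were not run as single genes. Of the list medians that moved by over 0.5, 2 changed sign: MHC class II presentation for APOE4 against APOE3 after LPS went from 0.31 to -0.61 with at least 4 rule genes, and growth factors and matrix genes after LPS in APOE4 went from -0.06 to 1.05 as a mean of CPM per cell. Of 164 alternative values for shares and counts 117 stayed within their limits, as did 609 of 640 for gene ratios, 70 of 80 for differences and 501 of 512 for list medians. With no limits on other cells' markers the macrophage shares were 1.06%, 1.30%, 0.887% and 1.06% for APOE3 (NaCl, LPS) and APOE4 (NaCl, LPS). The APOE4 LPS share was also 1.06% with at least 2000 UMIs, 1.35% with at least 2 rule genes, and 0.632% with at least 4 or with thinning before the rule. Counts of genes at least 2-fold apart followed the filter, given for at least 10 UMIs, at least 50 UMIs and no filter. After LPS in APOE3 they were 829, 285 and 1065 higher and 869, 152 and 1791 lower. After LPS in APOE4 they were 1093, 292 and 1472 higher and 845, 178 and 1544 lower. For APOE4 against APOE3 they were 332, 10 and 896 higher and 475, 31 and 1091 lower after NaCl. After LPS they were 738, 84 and 1597 higher and 429, 70 and 713 lower. After LPS the higher count was also 211 without called doublets, and with log2 of CPM + 10 the counts were 208 higher and 80 lower. The Lyve1 shares were 35.6%, 61.1% and 37.5% in APOE3 NaCl, APOE3 LPS and APOE4 NaCl when thinned to 2000 UMIs, and 40.5%, 74.5%, 40.7% and, in APOE4 LPS, 47.1% without thinning. The MHC class II share of APOE3 LPS was 18.1% without thinning, 20.8% at 1 UMI and 1.34% at 5 UMIs, and that of APOE4 LPS 13.4% without thinning and 19.1% at 1 UMI, against 19.8% at 1 UMI in each NaCl library. A lower filter tests more genes, and the other causes were not tested. Leaving out macrophages with Ttr or haemoglobin RNA was chosen after seeing the data. Depth limits genes under 20 UMIs, which give no ratio here.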
